A study of Mus musculus with 13 samples.

Results

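The 69 genes described here carry the symbols of cytosolic ribosomal proteins: Rpl or Rps followed by a number, with the stalk genes Rplp0, Rplp1 and Rplp2, and without S6 kinases and pseudogenes. They were 69 of 10425 genes whose brightest probe set with a single gene symbol reached a mean log2 signal of 4.9 over 13 arrays. Of the 69, 45 carry a large subunit symbol (Rpl) and 23 a small subunit symbol (Rps), assigned by symbol alone with Rps19bp1 set apart. Rps19bp1, which the symbol rule also takes, encodes a protein that binds a ribosomal protein and is no ribosomal protein itself. Rps15a (mean 4.69) and Rpl39l (4.48) fell just outside the level, whereas Rpl14 (5.66), Rps19bp1 (6.84) and Rpl22l1 (7.42) were the nearest inside it. Rpl5 and Rps3 were represented by probe sets shared with other symbols, and were not tested.

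The muscle was quadriceps, from male C57Bl/6 mice that were 4 months old and ate standard chow, and each mouse had 1 array. The groups were C (n = 3), SKM-KO (n = 3), Wt (n = 3) and SKM-Tg (n = 4). The study's design names ablation and gain of function of DOR, an earlier name of Trp53inp2, so SKM-KO was read as ablation in skeletal muscle with C as its control, and SKM-Tg as gain of function with Wt as its control. The labels state neither this pairing of controls nor the promoter or Cre that drives either allele, and each comparison rests on that reading.

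The cytosolic ribosome is built in the nucleolus from ribosomal RNA and about equal numbers of each ribosomal protein, whose genes are transcribed at high levels in nearly every cell. Many of their mRNAs begin with a cytosine followed by pyrimidines, the terminal oligopyrimidine motif through which the mTORC1 kinase and Larp1 control their translation. Striated muscle replaces part of Rpl3 with its paralogue Rpl3l, and the protein Rpl22 represses the mRNA of its paralogue Rpl22l1. The protein encoded by Trp53inp2 acts in autophagy and with nuclear receptors, and has been described in the nucleolus as a promoter of ribosomal RNA synthesis.

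The start sites of these genes are shown first because the pyrimidine motif is the feature for which these mRNAs are known. RefSeq promoter windows of build GRCm38.p6 (250 bases before to 50 after each annotated start) matched 55 of the 69 symbols. A C followed by at least 4 pyrimidines, beginning within 5 bases of the annotated start on the gene's strand, was present in 25 of the 55 (45.5%), against 21.2% of 27025 genes in the table and 23.9% of the 8392 tested genes that had a window. The windows printed here run from 35 bases before to 15 after the start, 5′ to 3′ on the gene's strand, and capitals mark the pyrimidine run. They are Rps6, Rpl15, Rps18 and Rpl22l1, which hold the motif, and Rpl10, Rpl23 and Rpl3l, in which these letters were not found at the annotated start (for Rpl3l, 1 of 2 annotated starts is shown).
Rps6: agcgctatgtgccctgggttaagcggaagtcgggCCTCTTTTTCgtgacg
Rpl15: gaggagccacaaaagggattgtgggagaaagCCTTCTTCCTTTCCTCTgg
Rps18: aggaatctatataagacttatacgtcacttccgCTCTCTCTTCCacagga
Rpl22l1: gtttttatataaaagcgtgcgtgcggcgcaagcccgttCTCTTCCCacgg
Rpl10: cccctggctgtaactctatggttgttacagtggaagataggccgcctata
Rpl23: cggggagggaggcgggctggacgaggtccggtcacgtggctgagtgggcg
Rpl3l: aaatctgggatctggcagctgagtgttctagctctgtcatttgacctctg

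These windows lie at chr4:86857353-86857402 on the minus strand for Rps6, chr14:18270972-18271021 (minus) for Rpl15, and chr17:33955651-33955700 (minus) for Rps18. Those of the other genes lie at chr3:28805473-28805522 (plus) for Rpl22l1, chrX:74270781-74270830 (plus) for Rpl10, chr11:97782425-97782474 (minus) for Rpl23 and chr17:24727791-24727840 (plus) for Rpl3l. Over the whole 300-base window and both strands, CTTCCGG, the core bound by ETS factors, was found in 23 of the 55 (41.8%), against 9.93% of all genes in the table and 19.2% of tested genes. AAGATGG, a YY1-type motif, was found in 8 (14.5%), against 7.28% of all and 8.59% of tested genes. TATAAA was found in 7 (12.7%), between the 15.7% of all and the 9.34% of tested genes. GGGCGGG, an Sp1-type motif, was found in 27 (49.1%), against 27.9% of all and 50.9% of tested genes. A match is a description of the letters in these windows and was not tested as a binding site.

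Trp53inp2 itself was read first as a check of the labels. Its log2 signal was 11.06, 11.19 and 11.15 in C and 8.58, 8.79 and 8.99 in SKM-KO, so that the highest SKM-KO array stood under the lowest C array (difference -2.35, SE 0.14, limma adjusted p 3.76e-06). It was 11.20, 11.46 and 11.00 in Wt and 11.11, 11.03, 11.28 and 11.24 in the arrays labelled SKM-Tg, a difference of -0.06 (SE 0.13, limma adjusted p 0.886). This probe set therefore did not show a higher level behind the SKM-Tg label, and where it lies in the transcript was not analysed here. Every direction given for SKM-Tg is that of the arrays with this label.

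The arrays were not equally even, and this touches all results for Wt and SKM-Tg. It also touches the standard errors, intervals and p-values of SKM-KO minus C, because the joint fit of the 13 arrays shares its estimate of each gene's spread. The median within-group SD of the 69 symbols was 0.04 in C, 0.04 in SKM-KO, 0.15 in Wt and 0.10 in SKM-Tg, beside 0.10, 0.10, 0.25 and 0.17 over all genes tested. Measured as the difference from the mean of the C arrays, the interquartile range of the 69 symbols was 0.48 in Wt 2, 0.27 in SKM-Tg 3, 0.23 in Wt 1, 0.20 in SKM-Tg 2 and 0.16 in SKM-Tg 4, whereas it was between 0.05 and 0.09 in the SKM-KO arrays and 0.07 in Wt 3. Over all genes the same ranges were 0.86 in Wt 2 and 0.51 in SKM-Tg 3, and on each array the ribosomal protein genes spread less than all genes tested. All genes tested were not matched to the 69 symbols in signal level, here or in the later comparisons. The 3′ minus 5′ control signal of Actb ran from -0.31 to -0.15 over the 13 arrays, with Wt 2 and SKM-Tg 3 (both -0.21) inside that range. For Gapdh it was 0.23 in SKM-Tg 3 and 0.25 in Wt 2, the lowest of the 13 arrays, and 0.26 to 0.30 in the others. Whether RNA quality plays a part in the uneven spread was not tested. The BioB hybridization spike read 6.99 to 7.42 in C and SKM-KO, 7.45, 8.04 and 7.45 in Wt, and 7.52 to 8.44 in SKM-Tg, and its part in the results was not tested.

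**Figure D1:**
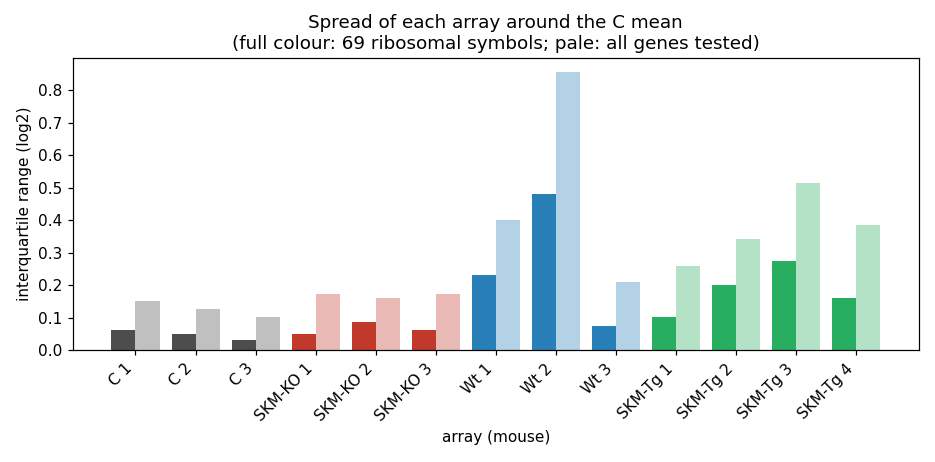
Interquartile range of the log2 difference from the mean of the C arrays, for each of 13 arrays (1 mouse each), over the 69 ribosomal protein symbols (full colour) and over all 10425 genes tested (pale). Wt 2 has the tallest bars (0.48 and 0.86) and SKM-Tg 3 follows; C arrays are measured against a mean that contains them, which makes their bars smaller.

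Ablation of DOR left no ribosomal protein mRNA past the threshold. In SKM-KO minus C, 0 of the 69 symbols had a limma adjusted p under 0.05, and 0 had an unadjusted p under 0.05 in either direction (percent of all genes tested: 0.00959 with an adjusted p under 0.05, 0.269 higher and 0.288 lower at the unadjusted threshold). The median difference was 0.02, beside 0.01 over all genes, and 67 of the 69 symbols lay within 0.1 of 0 on the log2 scale, against 73.2% of all genes. All 69 of the 95% intervals covered 0 and lay between -0.5 and 0.5. The widest reached -0.45 for Rpl22l1 and 0.44 for Rpl23, so that in this fit no member's interval held a change beyond 1.37-fold. More symbols were positive than negative, 50 against 19, where 54% of all genes were positive. In 11 symbols every SKM-KO array lay above every C array (15.9%, against 4.66% of all genes), and in 0 did every array lie below (2.83% of all genes). The 11 were Rpl3, Rpl4, Rpl7, Rpl9, Rpl12, Rpl17, Rpl24, Rpl27, Rpl30, Rps4x and Rps21. The intervals and p-values above use a spread shared with the more uneven Wt and SKM-Tg arrays. In a separate fit of C and SKM-KO, 0 symbols passed the adjusted threshold. There 1 symbol was higher at an unadjusted p under 0.05 (1.79% of all genes) and 0 were lower (0.93%).

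Rpl3, which lies close to the peptidyl transferase centre of the large subunit, had the smallest p in this comparison. Its log2 signal was 10.02, 10.13 and 10.10 in C and 10.27, 10.24 and 10.28 in SKM-KO. The lowest SKM-KO array lay above the highest C array, and the difference of 0.18 (SE 0.09, 95% interval -0.02 to 0.39) did not pass (unadjusted p 0.0729, limma adjusted p 0.999971). Leaving out single arrays gave differences from 0.15 to 0.21. The unadjusted limma p depended on the fit. It was 0.0187 in a separate fit of C and SKM-KO, and 0.00845 with array quality weights. With trend and robust moderation it was 0.0452, without the level filter 0.0467, and after median centring 0.109. The limma adjusted p was 0.822 or higher under every alternative. Wt read 10.24, 10.39 and 10.26 and SKM-Tg 10.18, 10.28, 10.45 and 10.33, so the C arrays were the lowest of all 13 for this gene.

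Rpl3l, its striated muscle paralogue, likewise passed in no comparison. Rpl3l read 11.14, 11.11 and 11.19 in C, 11.15, 11.15 and 11.14 in SKM-KO, 11.29, 11.43 and 11.13 in Wt, and 11.22, 11.23, 11.37 and 11.32 in SKM-Tg. The groups overlapped in each comparison. The differences were 0.00 in SKM-KO minus C (SE 0.09, 95% interval -0.20 to 0.21), 0.00 in SKM-Tg minus Wt (SE 0.09, -0.19 to 0.19) and 0.14 in Wt minus C, and the limma adjusted p was 0.322 or higher in all 3. Whether Rpl3 and Rpl3l differed from each other in any comparison was not tested.

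The remaining members named for SKM-KO minus C were Rpl27 (0.08, SE 0.10), Rpl7 (0.08, SE 0.13), Rplp1 (0.08, SE 0.12), Rpl9 (0.07, SE 0.08) and Rps9 (0.06, SE 0.09) on the positive side. On the negative side were Rpl22l1 (-0.14, SE 0.14), Rpl14 (-0.08, SE 0.12), Rps26 (-0.07, SE 0.12), Rpl36 (-0.03, SE 0.10), Rpl34 (-0.03, SE 0.09) and Rps19 (-0.03, SE 0.10), each with a limma adjusted p of 0.999971. Rps19 and Rps26 are genes whose loss of 1 copy causes Diamond-Blackfan anaemia in people. Rps19 read 7.80, 7.99 and 8.13 in SKM-KO, the largest SD of any member in that group (0.16), against 7.92, 8.06 and 8.03 in C. Without the lowest of these arrays its difference was 0.05.

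Subunits were read from the symbol alone. In SKM-KO minus C the median was 0.02 over the 45 large subunit symbols (33 positive, range -0.14 to 0.18). It was 0.02 over the 23 small subunit symbols (17 positive, range -0.07 to 0.07). In SKM-Tg minus Wt the medians were -0.01 for the large subunit (19 positive) and -0.06 for the small subunit (5 positive), beside -0.05 over all genes. The difference between the subunits was not tested.

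**Figure D2:**
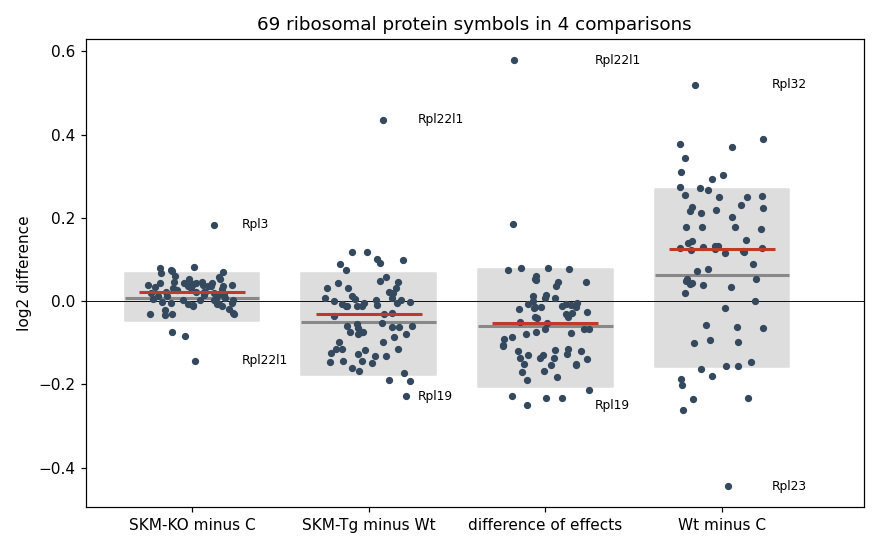
Log2 difference of each of the 69 symbols (points) in 4 comparisons, with the members' median (red line) and, over all 10425 genes tested, the median (grey line) and the middle 50% (grey band). The SKM-KO minus C points lie between -0.14 and 0.18; Rpl22l1 stands highest in SKM-Tg minus Wt (0.44) and in the difference of effects (0.58), and Rpl32 and Rpl23 mark the ends of Wt minus C.

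In the arrays labelled SKM-Tg, Rpl22l1 gave the highest difference of the 69 symbols, and no member passed the adjusted threshold. In SKM-Tg minus Wt, 0 of 69 had a limma adjusted p under 0.05, as did 0% of all genes. At an unadjusted p under 0.05, 1 symbol was higher (1.5% of all genes) and 1 was lower (5.39% of all genes). The count of lower symbols was 0 without Wt 2 (3.9% of all genes) and 7 without Wt 3 (20.9%). The median was -0.03 over the 69 symbols, beside -0.05 over all genes, and it was 0.01 after quantile normalization and 0.01 after cyclic loess. In all, 24 symbols were positive (34.8%, against 37.9% of all genes).

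Rpl22l1 encodes a paralogue of the large subunit protein Rpl22. Its log2 signal was 7.21, 7.02 and 7.51 in Wt and 7.98, 7.58, 7.62 and 7.54 in SKM-Tg, beside 7.35, 7.44 and 7.42 in C and 7.14, 7.36 and 7.28 in SKM-KO. The 4 SKM-Tg arrays were thus the highest of the 13, with a margin over Wt 3 of a few hundredths, and SKM-Tg 1 was the highest array. Rpl22l1 was the only member for which every SKM-Tg array lay above every Wt array (1.18% of all genes did). The difference was 0.44 (SE 0.13, 95% interval 0.15 to 0.73), a fold of 1.35, with an unadjusted p of 0.00641 and a limma adjusted p of 0.692. Leaving out single arrays moved it between 0.32 (without Wt 2) and 0.57 (without Wt 3), and the adjusted p did not go below 0.0667. With array quality weights the adjusted p was 0.00678, in a fit that called 19.6% of all genes and gave Wt 1 a weight of 9.46 against 0.14 for Wt 2 and 0.22 for Wt 3.

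Rpl22 itself read 8.78, 8.92 and 9.07 in Wt and 9.13, 8.97, 9.003 and 8.99 in SKM-Tg, groups that overlapped. Its difference was 0.10 (SE 0.09, 95% interval -0.09 to 0.29, limma adjusted p 0.732). The dimmer probe set of Rpl22 gave -0.17, so the direction for Rpl22 depends on the probe set read. In SKM-KO minus C, Rpl22 differed by 0.02 (SE 0.09) on its brightest probe set and by 0.18 on the dimmer one. Rpl22l1 differed by -0.14 (SE 0.14, 95% interval -0.45 to 0.17) in the same comparison. The difference of the gain and loss effects for Rpl22 was 0.08 on the brightest probe set and -0.36 on the dimmer one. The relation between Rpl22 and Rpl22l1 was not tested.

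**Figure D3:**
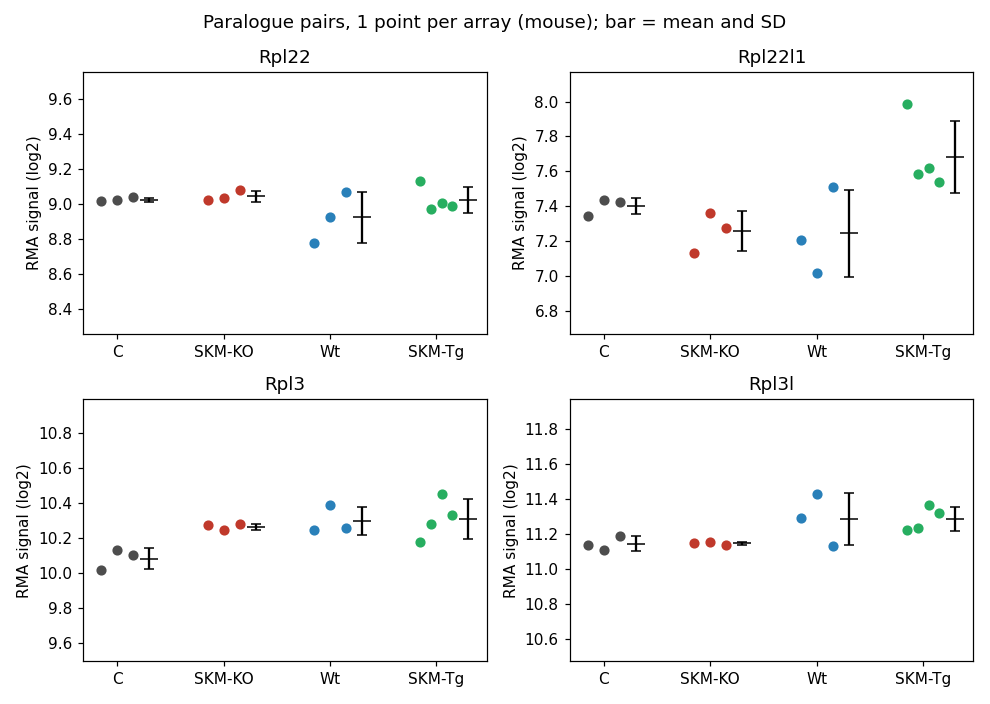
RMA log2 signal of Rpl22, Rpl22l1, Rpl3 and Rpl3l in each array (1 point per mouse), with the group mean and SD as a bar beside the points; each panel spans 1.5 log2 units. Rpl22l1 is highest in the 4 SKM-Tg arrays (7.54 to 7.98), and Rpl3 is lowest in the 3 C arrays (10.02 to 10.13).

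Rpl10, a late-joining protein of the large subunit near its catalytic core, was the lower member. It read 11.53, 11.63 and 11.47 in Wt and 11.35, 11.39, 11.42 and 11.24 in SKM-Tg, with no overlap between the groups and SKM-Tg the lower. The difference was -0.19 (SE 0.08, 95% interval -0.37 to -0.02, unadjusted p 0.0346, limma adjusted p 0.702). The second probe set of Rpl10 gave -0.22. C read 11.44, 11.42 and 11.38 and SKM-KO 11.44, 11.45 and 11.47, so SKM-Tg overlapped C. Rps4x was the other symbol with every SKM-Tg array below every Wt array, at a difference of -0.08 (SE 0.08); these 2 symbols are 2.9% of the 69, and 2.78% of all genes showed the same order.

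The other members named for SKM-Tg minus Wt were Rps27l (0.12, SE 0.10), Rpl12 (0.12, SE 0.11), Rpl14 (0.10, SE 0.11) and Rpl4 (0.09, SE 0.09) on the positive side. On the negative side were Rpl19 (-0.23, SE 0.13), Rps19bp1 (-0.19, SE 0.12), Rps26 (-0.16, SE 0.11), Rpl27 (-0.15, SE 0.10) and Rpl24 (-0.14, SE 0.10), with limma adjusted p of 0.702 to 0.765 over these 9. Rps27l is a p53-responsive paralogue of Rps27. Rpl19 read 10.82, 11.18 and 10.61 in Wt and 10.53, 10.63, 10.85 and 10.55 in SKM-Tg, so the groups overlapped and Wt 2 alone stood above 11. Without Wt 2 the differences were -0.07 for Rpl19, -0.06 for Rps19bp1, -0.04 for Rps26, -0.04 for Rpl27, -0.04 for Rpl24, 0.03 for Rpl14, -0.01 for Rpl4 and 0.22 for Rpl12. Without SKM-Tg 3 they were 0.03 for Rpl12 and 0.05 for Rps27l. Under array quality weights 6 members passed (Rpl10, Rpl19, Rpl22, Rpl22l1, Rps10 and Rps27l), or 3 in each direction, in the fit that called 19.6% of all genes.

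Whether gain and loss of DOR differed in their effect was tested as the difference of the 2 effects. At a limma adjusted p under 0.05, 0 of 69 symbols passed, against 0.0192% of all genes. Rpl22l1 was the 1 symbol with an unadjusted p under 0.05 and a higher value (0.739% of all genes), and 0 were lower (2.36%). Its difference of effects was 0.58 (SE 0.20, 95% interval 0.16 to 1.003, unadjusted p 0.0113, limma adjusted p 0.990). With array quality weights Rpl22l1 had an adjusted p of 0.0264, where 4.7% of all genes were called. The negative members with the smallest p were Rpl19 (-0.25, SE 0.19), Rpl10 (-0.23, SE 0.12), Rpl7 (-0.23, SE 0.17), Rpl27 (-0.23, SE 0.14), Rpl24 (-0.19, SE 0.14) and Rpl3 (-0.17, SE 0.13), each with a limma adjusted p of 0.990. Without Wt 2, Rpl19, Rpl24 and Rpl27 stood at -0.09, -0.09 and -0.12, and without Wt 3, 3 symbols were lower at an unadjusted p under 0.05, where 11.3% of all genes were. Of the 69 differences of effects, 17 were positive (24.6%, against 38.3% of all genes), at a median of -0.05 beside -0.06 over all genes.

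The stalk proteins Rplp0, Rplp1 and Rplp2, which recruit elongation factors to the ribosome, gave differences near 0 on ablation: 0.00 (SE 0.10), 0.08 (SE 0.12) and -0.01 (SE 0.14). Rplp2 read 10.67, 10.76 and 10.73 in C, 10.70, 10.71 and 10.71 in SKM-KO, 10.96, 11.34 and 10.78 in Wt, and 10.79, 10.95, 11.19 and 10.93 in SKM-Tg. All Wt and SKM-Tg arrays of Rplp2 lay above all C and SKM-KO arrays. Rplp0 ran from 11.49 to 11.91 and Rplp1 from 10.31 to 10.75 over the 13 arrays, both highest in Wt 2. In SKM-Tg minus Wt the stalk genes differed by -0.12 (SE 0.09), -0.06 (SE 0.11) and -0.06 (SE 0.13). Rpl7 and its paralogue Rpl7l1 differed by 0.08 and 0.01 in SKM-KO minus C and by -0.15 and -0.06 in SKM-Tg minus Wt. Rpl7 read 9.90, 9.83 and 9.71 in SKM-Tg 2, 3 and 4 and 9.94 and 9.95 in Wt 1 and 2, below the 10.18 to 10.32 of the other 8 arrays.

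The comparison of the groups taken as controls gave the widest set of differences, from -0.44 to 0.52. In Wt minus C the median was 0.13 over the 69 symbols, beside 0.06 over all genes, with 51 positive and 18 negative symbols (73.9% positive, against 58.8% of all genes). At a limma adjusted p under 0.05, 0 of 69 passed (0.00959% of all genes), and the smallest adjusted p was 0.145. At an unadjusted p under 0.05, 15 symbols were higher (21.7%, against 16.2% of all genes) and 1 was lower (1.45%, against 11.6%). In 31 symbols every Wt array lay above every C array (44.9%, against 15.4% of all genes), and in 1, Rpl36a, every Wt array lay below (8.5% of all genes). The labels give no batch, strip or scan date, so mouse line, animal cohort and hybridization cannot be told apart in this comparison.

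The Wt minus C differences went in opposite directions in different members. Rpl32 read 8.86, 8.95 and 8.77 in C, 8.79, 8.80 and 8.91 in SKM-KO, 9.34, 9.81 and 8.99 in Wt, and 9.01, 9.16, 9.57 and 9.12 in SKM-Tg. All arrays of Wt and SKM-Tg lay above all arrays of C and SKM-KO (Wt minus C 0.52, SE 0.19, 95% interval 0.12 to 0.92, limma adjusted p 0.146). Rpl23 read 11.55, 11.65 and 11.58 in C, 11.58, 11.62 and 11.66 in SKM-KO, 11.10, 10.74 and 11.60 in Wt, and 11.55, 11.28, 11.05 and 11.01 in SKM-Tg. Here Wt 3 and SKM-Tg 1 lay within the C range and the other 5 arrays of these groups lay below it (Wt minus C -0.44, SE 0.19, 95% interval -0.85 to -0.04, limma adjusted p 0.162). The second bright probe set of Rpl23 gave -0.48.

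Other members named on the higher side were Rpl13a (0.39, SE 0.13), Rps15 (0.38, SE 0.14), Rpl19 (0.37, SE 0.14), Rpl27 (0.30, SE 0.10) and Rps28 (0.27, SE 0.10). Rpl13a, known for its release from the ribosome during inflammation and widely used as a reference gene in quantitative PCR, read 10.47, 10.51 and 10.47 in C and 10.90, 11.13 and 10.59 in Wt, groups that did not overlap. On the lower side were Rps24 (-0.26, SE 0.15), Rpl31 (-0.23, SE 0.11), Rpl36a (-0.23, SE 0.12), Rpl21 (-0.19, SE 0.11) and Rps3a1 (-0.18, SE 0.13). Rps24 read 10.57, 10.55 and 10.51 in C, 10.35, 9.98 and 10.52 in Wt, and 10.59, 10.26, 10.21 and 10.05 in SKM-Tg. As for Rpl23, Wt 3 and SKM-Tg 1 were the arrays closest to C.

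Array by array, the symbols could be set against the range of the 3 C arrays, which all these counts share. In Wt 1, 41 symbols lay above all C arrays (44.9% of all genes did) and 18 below (28.8%). In Wt 2, 46 lay above (52.4%) and 18 below (34.2%), and in Wt 3, 52 lay above (28.8%) and 2 below (26%). In SKM-Tg 1 to 4 the counts above were 45 (26.7%), 34 (33.6%), 46 (46.2%) and 35 (33.6%), and those below were 5 (35.2%), 20 (35.5%), 15 (31.3%) and 20 (37.7%). In SKM-KO 1 to 3 the counts above were 17 (20.7%), 29 (30.5%) and 38 (28.3%), and those below were 13 (27.6%), 8 (17.5%) and 1 (21.5%). Wt 3, the Wt array closest to C in spread, thus had the most symbols above the C range; its median difference from the C mean was 0.06 over the 69 symbols.

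Single arrays carried much of the contrast between Wt and C. Relative to the C mean, Rpl32 stood at 0.95 and Rpl23 at -0.85 in Wt 2, and at 0.71 and -0.54 in SKM-Tg 3. Wt 2 had the highest signal of its group in 45 of 69 symbols and the lowest in 16, against 52.8% and 34.5% of all genes. Without Wt 2, 2 symbols were higher at an unadjusted p under 0.05, where 6.05% of all genes were, and 0 passed the adjusted threshold; the median was 0.08, beside 0.03 over all genes. Rpl32 then stood at 0.31 and Rpl23 at -0.24. The count of higher symbols also fell when other arrays were left out. It was 6 without C 1, 7 without C 2 and 7 without C 3, where 10.5%, 10.8% and 10.9% of all genes were higher. Without Wt 1 it was 12 (12.5% of all genes). Without both Wt 2 and SKM-Tg 3, 6 were higher at the unadjusted threshold, where 8.55% of all genes were, and 0 passed. Without Wt 3, 20 symbols passed the adjusted threshold, 16 higher and 4 lower, in a fit that called 39.5% of all genes. Array quality weights called 44 of the 69 symbols, 32 higher and 12 lower, where 58.5% of all genes were called.

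**Figure D4:**
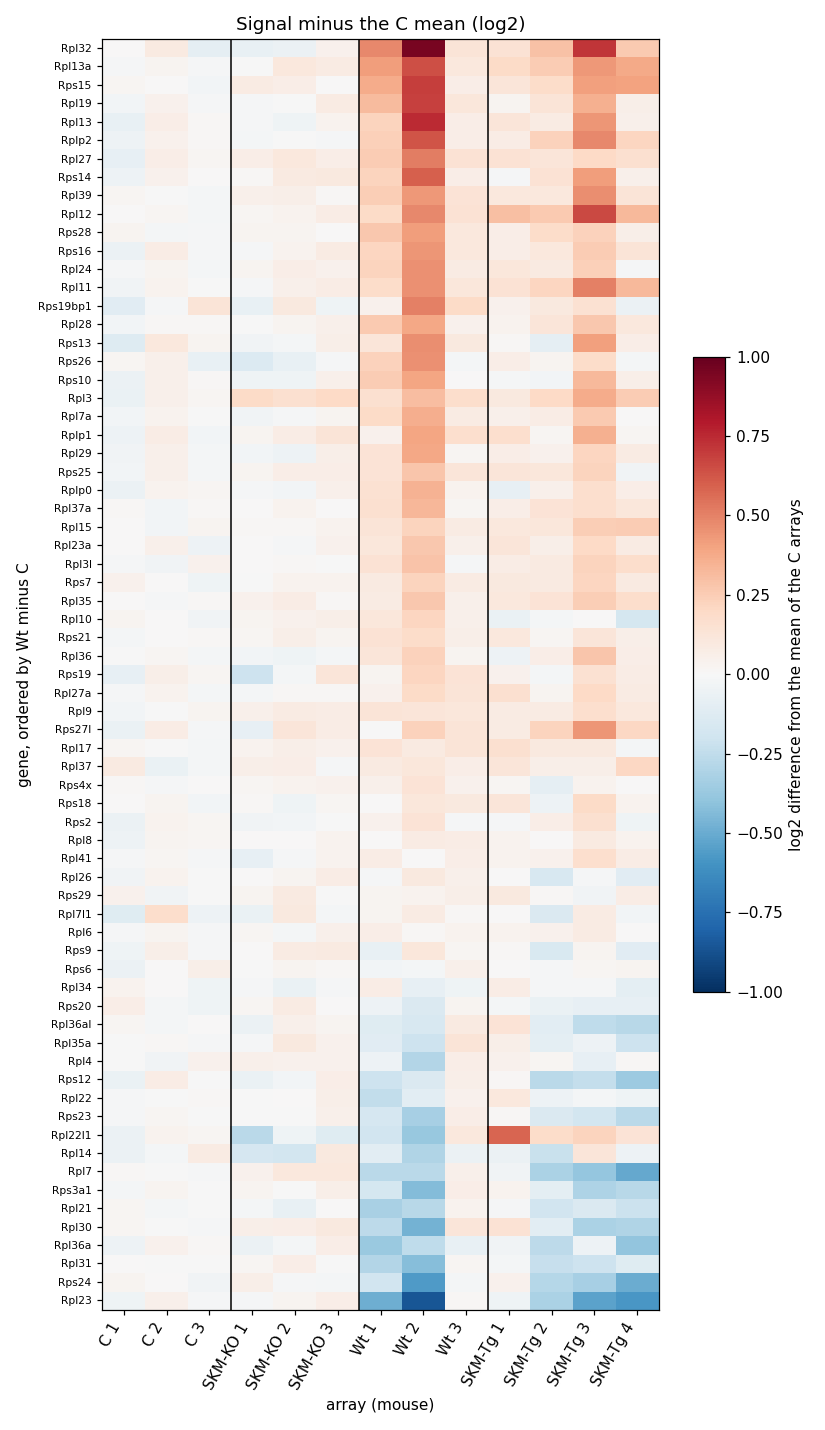
Log2 signal minus the mean of the C arrays for the 69 symbols (rows, ordered by Wt minus C) in the 13 arrays (columns; black lines separate the groups). C and SKM-KO columns are pale throughout, whereas Wt 2 and SKM-Tg 3 run from red at Rpl32 (0.95 and 0.71) to blue at Rpl23 (-0.85 and -0.54), and Rpl22l1 stands out in SKM-Tg 1 (0.58).

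Some members hardly varied over all 13 arrays. The smallest SDs were those of Rpl6 (0.03), Rps6 (0.03), Rpl8 (0.04), Rps29 (0.04) and Rps4x (0.05). Rps6, the substrate of S6 kinase, ran from 11.52 to 11.64, and Rpl6 from 11.11 to 11.21. The largest SDs were those of Rpl32 (0.32), Rpl23 (0.31), Rpl22l1 (0.25), Rpl13 (0.23) and Rps15 (0.22).

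Genes with and without the pyrimidine start were also set side by side, leaving out Rps19bp1. The median in SKM-KO minus C was 0.01 over the 25 with it and 0.02 over the 29 without. In SKM-Tg minus Wt the medians were -0.01 and -0.06, and in Wt minus C they were 0.12 and 0.13. The ranges overlapped in each comparison.

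Probe design limits these values, because ribosomal protein genes have many processed pseudogenes and near-identical copies. Of the 69 probe sets read, 20 were of the x_at kind and 6 of the s_at kind, which can hybridize with more than 1 transcript. For 30 symbols more than 1 probe set reached the level of 4.9. All of a symbol's probe sets past that level shared a sign for 19 of the 30 in SKM-KO minus C. The same held for 20 in SKM-Tg minus Wt and 22 in Wt minus C. With the small differences in SKM-KO minus C, the sign of a single member is therefore uncertain.

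Other genes of ribosome production and translation gave no call either. The ribosomal proteins Rpsa and Fau, outside the symbol rule, differed by 0.01 (SE 0.09) and -0.01 (SE 0.14) in SKM-KO minus C and by -0.05 (SE 0.09) and -0.07 (SE 0.13) in SKM-Tg minus Wt. Of 10 measured genes of RNA polymerase I and its factors, which transcribe ribosomal RNA, 0 passed; 6 were positive in SKM-KO minus C (median 0.03) and 3 in SKM-Tg minus Wt (median -0.12, beside -0.05 over all genes). Polr1b, the second largest subunit, gave -0.34 (SE 0.16) and the initiation factor Rrn3 -0.22 (SE 0.12) in SKM-Tg minus Wt, each with a limma adjusted p of 0.702, and Rrn3 gave 0.19 (SE 0.13) in SKM-KO minus C. Of 28 ribosome assembly genes, 0 passed; the medians were 0.01 and -0.05. Ltv1, a small subunit export factor, gave 0.31 (SE 0.12) and Nob1, the endonuclease that trims the small subunit's ribosomal RNA, -0.41 (SE 0.17) in SKM-Tg minus Wt, both with a limma adjusted p of 0.702.

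Of 7 elongation factor genes, 0 passed; 5 were positive in SKM-KO minus C (median 0.04) and 1 in SKM-Tg minus Wt (median -0.07). Eef1a1, itself an mRNA with a pyrimidine start, gave 0.07 (SE 0.09) in SKM-KO minus C, and Eef1a2, the muscle form, -0.31 (SE 0.18) in SKM-Tg minus Wt. Of 21 initiation factor genes, 0 passed, at medians of 0.02 and -0.08. Of 15 genes of mTORC1 and its targets and regulators, 0 passed, at medians of 0.02 and -0.02. Sesn1, an inhibitor of mTORC1, gave 0.49 (SE 0.24, unadjusted p 0.06) in SKM-KO minus C, and Mtor -0.31 (SE 0.16) in SKM-Tg minus Wt.

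The makeup of the tissue was read from marker lists on the same arrays. All 10 muscle fibre markers were measured, and their mean signal ran from 12.18 to 12.37 over the 13 arrays. In SKM-KO minus C, where 54% of all genes were positive, so were all 9 measured macrophage markers (median 0.20), 3 of 3 fat cell markers (median 0.43) and 3 of 3 nerve and Schwann cell markers (median 0.33). Of these fat cell markers, Fabp4 was positive only at 0.002 (SE 0.14). In the same comparison 3 of 3 red cell markers (median 0.06) and 7 of 10 muscle fibre markers (median 0.02) were positive. So were 4 of 6 fibroblast and matrix markers (median 0.12) and 2 of 6 endothelial markers (median -0.03). In SKM-Tg minus Wt, where 37.9% of all genes were positive, 1 of 9 macrophage markers (median -0.29), 0 of 6 endothelial markers (median -0.26) and 2 of 6 fibroblast and matrix markers (median -0.21) were positive. There 0 of 3 red cell markers (median -0.28), 2 of 10 muscle fibre markers (median -0.06) and 2 of 3 nerve and Schwann cell markers (median 0.03) were positive. Myod1, a transcription factor of satellite cells and myoblasts, gave -0.46 (SE 0.20, unadjusted p 0.0366) in SKM-KO minus C and -0.54 (SE 0.18, unadjusted p 0.0121) in SKM-Tg minus Wt, with limma adjusted p of 0.999971 and 0.702. Cdh15, the other satellite cell marker past the level, gave -0.03 (SE 0.20) in SKM-KO minus C and -0.34 (SE 0.19) in SKM-Tg minus Wt. The same 3 fat cell markers were positive in SKM-Tg minus Wt, at a median of 0.86. Adipoq gave 1.81 (SE 0.92), whereas Fabp4 gave 0.02 (SE 0.13). The mean of these 3 markers ran from 8.89 to 10.16 in SKM-Tg, 7.76 to 9.32 in Wt, 7.60 to 7.95 in C and 7.51 to 9.21 in SKM-KO. The mean of the macrophage markers ran from 5.96 to 6.39 in C, 6.32 to 6.57 in SKM-KO, 6.07 to 6.56 in Wt and 5.73 to 6.50 in SKM-Tg, and Adgre1 lay below the level. In Wt minus C, where 58.8% of all genes were positive, so were 3 of 3 red cell and 3 of 3 nerve and Schwann cell markers (medians 0.42 and 0.40). The red cell mean ran from 7.72 to 7.77 in C and 7.90 to 8.70 in Wt. There 6 of 9 macrophage (median 0.29), 2 of 3 fat cell (0.66), 3 of 6 endothelial (0.04) and 3 of 6 fibroblast and matrix markers (-0.09) were positive. None of these markers passed the threshold. The lymphocyte markers other than Cd79a and the satellite cell markers Pax7 and Myf5 lay below the level of 4.9. In bulk muscle, fewer cells of a type and less RNA per cell cannot be told apart, and the part of these markers in the ribosomal protein values was not tested.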

How the data were processed

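Total RNA from 13 quadriceps muscles (25 ng each) was amplified isothermally and hybridized to Affymetrix mouse strip arrays, per the labels. The authors deposited log2 signals from RMA for 45141 probe sets, per the submitters' processing notes, and its version is not given in the sources used here. Values ran from 2.14 to 13.21 and array medians from 4.85 to 4.94; arrays have no read depth, and their number limits the precision. Control probe sets (104) and those with several (551) or no (15588) gene symbols in the platform annotation were set aside. The brightest of the 28898 remaining stood for each of 17097 genes, and 10425 with a mean of at least 4.9 were tested.

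limma 3.58.1 (R 4.3.3) gave 1 joint fit of the 13 arrays with a mean for each group, moderated by eBayes (9 residual degrees of freedom, 3.62 prior). Tests were two-sided, with Benjamini-Hochberg adjustment over all genes tested and a threshold of 0.05. Errors are standard errors of the fit unless marked SD. The fit was tested on simulated data that gave each gene the same SD in every group. The simulated shifts were larger than any member's difference here. That test therefore does not cover the uneven spread of these arrays or differences as small as those of the members. Members, lists and naming rule (6 smallest p per direction, paralogues, stalk genes, extremes of SD, and 4 genes per other list) were chosen with earlier results of these data known. For the other lists, the rule took the 4 genes with the smallest p in each of SKM-KO minus C and SKM-Tg minus Wt. Only some of these are named in the text. Sequences are RefSeq's. Each label names a separate mouse; numbers within groups follow accession order. Alternatives covered normalization, filter, probe set choice, moderation, array weights, separate fits and left-out arrays.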

Additional observations from a re-analysis of the deposited data

Results flagged for a closer look

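Rpl12, which lies near the base of the stalk, read 10.59 in SKM-Tg 3 and 10.19 to 10.25 in the other 3 SKM-Tg arrays. The gap was 0.845 of the group's range, above Dixon's 95% critical value for 4 samples. Of the 69 symbols, 3 (4.35%) had such a gap in SKM-Tg, and chance gives about 1 in 20. The other two were Rpl39 and Rps7, both with SKM-Tg 3 as the far array.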

How the results depend on the processing

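The count of members past the threshold was 0 in SKM-KO minus C under each alternative run, from normalization to leaving out single arrays. With array quality weights it was 6 in SKM-Tg minus Wt, 1 in the difference of effects and 44 in Wt minus C. Those fits called 19.6%, 4.7% and 58.5% of all genes. The weights came from limma's gene-by-gene method, chosen after seeing the data because REML did not converge. Leaving out single arrays gave 0 to 20 in Wt minus C, the 20 without Wt 3, where 39.5% of all genes were called. The median difference of effects was 0.0049 after quantile normalization. Some members changed sign. Rpl3l gave -0.001 (quantile), -0.0085 (cyclic loess) and -0.0106 (weights) in SKM-KO minus C, and -0.0021 (median centring) and -0.0337 (weights) in SKM-Tg minus Wt. Rpl22 gave -0.0364 in SKM-Tg minus Wt and -0.1384 in the difference of effects with the mean of probe sets, and Rpl21 -0.0429 there without x_at probe sets. With weights, Rpl14 gave -0.0248 and Rps19bp1 0.0134 in SKM-Tg minus Wt, and Rpl41 -0.0115 in the difference of effects; Rpl14 gave -0.0273 without both Wt 2 and SKM-Tg 3, an alternative chosen after seeing the data. Leaving out single arrays, the range in SKM-KO minus C was -0.017 to 0.023 for Rpl3l and -0.1126 to 0.0515 for Rps19. For SKM-Tg minus Wt it was -0.0743 to 0.0738 for Rpl3l, -0.0349 to 0.0581 for Rpl3 and -0.0068 to 0.1702 for Rpl4. The cause of these changes was not tested. No paired analysis was possible because the labels give no replicate numbers that groups share.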
